A study of Mus musculus with 16 samples.

Results

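The genes described here are 36 genes of glycolysis and of the response to low oxygen, read by symbol from gene expression tables of the mouse prefrontal cortex. The symbols were Slc2a3, Hk1, Hk2, Gpi1, Pfkl, Pfkm, Pfkp, Pfkfb3, Aldoa, Tpi1, Gapdh, Pgk1, Pgam1, Eno1, Eno2, Pkm, Ldha, Ldhb, Slc16a1, Slc16a3, Pdk1, Pdk2, Pdk3, Hif1a, Epas1, Egln1, Egln3, Vegfa, P4ha1, P4ha2, Bnip3, Bnip3l, Ankrd37, Ddit4, Ndrg1 and Car9. They matched 37 of the 19748 entries of the P1 table and 36 of the 19014 entries of the P14 table. Aldoa named 2 entries, ENSMUSG00000030695, which is called Aldoa below, and the low ENSMUSG00000114515 just upstream of it on the same strand. Car9, a carbonic anhydrase at the cell surface, has values in the P1 table only.

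All animals were male mice of the outbred ICR strain, with no gene alteration named in the labels, and the tissue was dissected medial prefrontal cortex. Their mothers were either stressed during pregnancy (PNS) or left unstressed (Ctrl), and cortex was taken on postnatal day 1 (P1) or day 14 (P14). Each of the 4 groups, Ctrl P1, PNS P1, Ctrl P14 and PNS P14, held 4 libraries of poly(A) RNA. The labels give neither the kind of stress nor the litter of any animal, so p-values measure the spread between these libraries.

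Glycolysis turns glucose into pyruvate, which mitochondria oxidize or lactate dehydrogenase reduces to lactate. Under low oxygen the factors HIF-1α and HIF-2α escape prolyl hydroxylation, bind DNA and raise transporters, glycolytic enzymes, pyruvate dehydrogenase kinases and genes for vessel growth and mitophagy. In the brain, several steps have isoforms that differ between neurons, glia and dividing precursors, and the cortex shifts towards glucose oxidation as it matures after birth.

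Libraries held 34.0 to 58.8 M reads at P1 and 15.1 to 73.0 M reads at P14. All 10 neuron markers had values at both ages, as did all 8 microglia and 10 astrocyte markers, while Mobp and Opalin, of oligodendrocytes, have no P1 values. All 8 olfactory bulb and all 9 striatal markers had values at both ages too, so having values does not identify the tissue. At P1 the 8 olfactory bulb markers summed to 1768 to 4111 normalized counts in Ctrl and 1455 to 15709 in PNS, and each was higher in PNS on average. A P14 library, PNS replicate 4, stood apart. It had the highest value of the 8 P14 libraries in 18 of the 36 entries and the lowest in 6, against 30.0% and 28.2% of all 15873 genes tested.

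Promoter sequences are shown for 5 genes that are described closely below. Pfkp, P4ha1 and Pdk1 had the smallest unadjusted p-values for prenatal stress among the listed genes, though limma called none of them. Ldha and Ldhb form the best known isoform pair. Each is the stretch before a RefSeq transcription start on GRCm38.p6, written along the gene's strand, trimmed where an annotated exon overlapped. Capitals mark the core letters bound by HIF factors, ACGTG or GCGTG, on either strand; the palindrome CACGTG holds CACGT and ACGTG overlapping. The regions are chr13:6648782-6649021 for Pfkp (minus strand), chr10:59323046-59323295 for P4ha1 (plus), chr2:71872974-71873223 for Pdk1 (plus), chr7:46845554-46845803 for Ldha (plus, inside the gene's annotated span) and chr6:142507958-142508207 for Ldhb (minus).
Pfkp: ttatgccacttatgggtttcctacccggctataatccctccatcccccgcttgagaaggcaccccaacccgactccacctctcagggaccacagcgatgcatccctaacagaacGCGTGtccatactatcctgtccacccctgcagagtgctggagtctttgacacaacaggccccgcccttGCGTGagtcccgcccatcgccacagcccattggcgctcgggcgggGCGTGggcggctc
P4ha1: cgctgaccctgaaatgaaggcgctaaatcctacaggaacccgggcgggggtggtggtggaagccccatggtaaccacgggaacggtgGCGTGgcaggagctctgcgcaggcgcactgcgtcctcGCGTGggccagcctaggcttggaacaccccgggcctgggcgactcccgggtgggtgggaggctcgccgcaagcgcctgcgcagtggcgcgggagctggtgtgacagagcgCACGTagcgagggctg
Pdk1: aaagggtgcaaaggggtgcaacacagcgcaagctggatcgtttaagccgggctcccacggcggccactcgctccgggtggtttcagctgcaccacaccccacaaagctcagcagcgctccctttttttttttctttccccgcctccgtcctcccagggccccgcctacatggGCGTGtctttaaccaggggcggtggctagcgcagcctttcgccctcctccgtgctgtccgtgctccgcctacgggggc
Ldha: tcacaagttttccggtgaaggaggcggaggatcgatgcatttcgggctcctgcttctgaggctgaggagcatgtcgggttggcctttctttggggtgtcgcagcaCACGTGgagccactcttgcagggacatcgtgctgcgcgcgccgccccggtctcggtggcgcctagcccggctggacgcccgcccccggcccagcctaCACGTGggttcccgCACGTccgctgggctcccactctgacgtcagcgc
Ldhb: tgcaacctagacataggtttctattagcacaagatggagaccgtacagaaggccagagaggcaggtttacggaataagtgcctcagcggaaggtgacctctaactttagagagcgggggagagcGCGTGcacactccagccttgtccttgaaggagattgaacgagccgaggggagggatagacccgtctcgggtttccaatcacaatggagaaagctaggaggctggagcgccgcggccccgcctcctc
In the 250 bases before the start, these letters occurred in 36 of 46 windows of the listed genes (78.3%), and in 38.6% of all 32851 RefSeq windows of that length. Of the 32 listed genes with a window, 29 had the letters in at least 1 window. The same share over all genes is not given here, so 29 of 32 has no background beside it. No window was given for Epas1, Ndrg1, Slc2a3 and Bnip3l. A match describes letters and is neither a bound site nor a cause of any value below.

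The first comparison asked how the genes change as the cortex matures from P1 to P14. Of the 36 entries found at both ages, 25 rose and 6 fell in Ctrl. In PNS, 26 rose and 5 fell. Among all 16512 genes tested, 35.4% rose and 37% fell in Ctrl, and 35% rose and 38.5% fell in PNS. Calls rest on edgeR's quasi-likelihood test on recovered reads, at an adjusted p (Benjamini-Hochberg over all genes) below 0.05. With a change of 2-fold or more asked for as well, 14 entries rose and 2 fell in Ctrl, against a background of 15.7% and 13.6%. In PNS, 15 rose and 2 fell, against 14.8% and 15.6%. The median log2 change was 0.74 in Ctrl and 0.91 in PNS, against -0.036 and -0.061 over all genes. Scaling by library size alone moved the all-gene medians to -0.25 and -0.34. It left 27.0% higher and 47.0% lower in Ctrl, and 24.4% and 51.4% in PNS. Without PNS P14 replicate 4, 26 entries rose and 6 fell in PNS, 13 and 2 of them by 2-fold or more. Levels below are RPKM on TMM-scaled library sizes (reads per kilobase of annotated exon at a common depth), a unit that can be set across genes and ages. In bulk tissue, fewer cells of a type and less RNA per cell cannot be told apart.

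**Figure D1:**
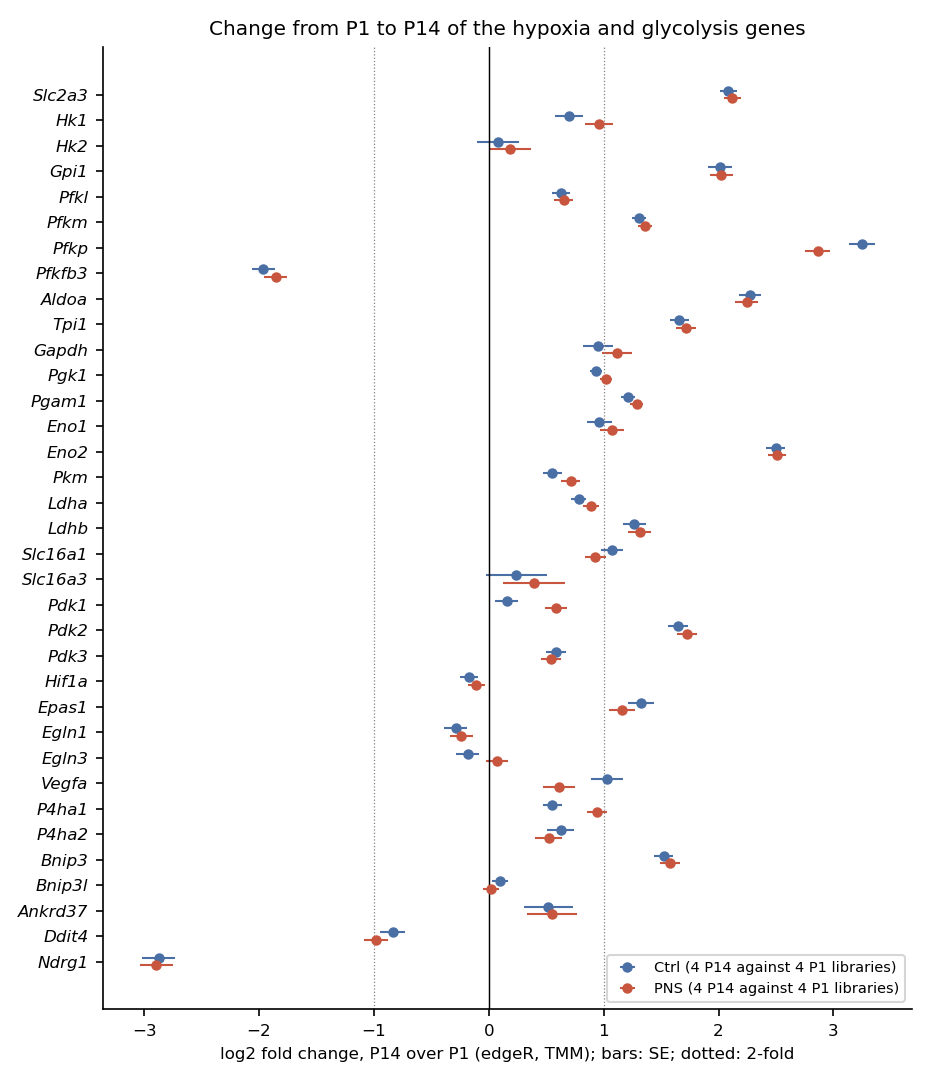
log2 fold change from P1 to P14 of 35 listed genes, with the SE, in Ctrl and PNS (4 libraries of each age); dotted lines mark a 2-fold change. Pfkp lies furthest to the right (3.25 in Ctrl, 2.86 in PNS), and Ndrg1 and Pfkfb3 lie furthest to the left.

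Entry of glucose came first in the pathway. Slc2a3, the high-affinity neuronal glucose transporter GLUT3, rose 4.24-fold in Ctrl (adjusted p = 2.78e-13, edgeR). Its level in Ctrl was 7.53, 9.43, 8.78 and 8.55 at P1 and 37.1, 37.7, 35.2 and 35.3 at P14. In PNS it was 9.14, 7.89, 9.53 and 9.04 at P1 and 36.7, 37.5, 38.4 and 41.9 at P14, and the ages did not overlap in either condition. Hk1, the hexokinase held on mitochondria that traps glucose in the cell, had Ctrl levels of 39.9, 44.8, 38.9 and 49.0 at P1 and 77.6, 68.3, 66.3 and 68.4 at P14. Its PNS levels were 41.3, 37.2, 44.0 and 42.2 at P1 and 68.7, 75.6, 69.4 and 107 at P14, so that 1 PNS P14 library stood far above the other 3. Hk1 rose 1.63-fold in Ctrl and 1.95-fold in PNS, or 1.73-fold in PNS without that library. Hk2, the inducible hexokinase and a HIF target, was among the lowest of the set. Ctrl libraries gave 0.678, 0.724, 0.539 and 0.538 at P1 and 0.627, 0.673, 0.645 and 0.684 at P14. PNS libraries gave 0.632, 0.633, 0.908 and 0.432 at P1 and 0.656, 0.664, 0.864 and 0.769 at P14. The ages overlapped, and the log2 changes of 0.081 ± 0.18 in Ctrl and 0.19 ± 0.18 in PNS (SE) did not pass (adjusted p = 0.706 and 0.366, edgeR). Scaled by library size alone, both had a negative sign; without PNS P1 replicate 3, Hk2 passed in PNS (adjusted p = 0.0439).

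The middle steps held the member that rose most. Gpi1, glucose-6-phosphate isomerase, rose 4.03-fold in Ctrl and 4.06-fold in PNS. Ctrl levels were 24.8, 27.8, 27.0 and 25.4 at P1 and 111, 103, 102 and 107 at P14. PNS levels were 28.2, 27.6, 33.3 and 24.1 at P1 and 105, 114, 103 and 138 at P14, with no overlap of ages. Phosphofructokinase, the committed step, is built from a muscle (Pfkm), a liver (Pfkl) and a platelet (Pfkp) subunit, and all 3 rose. Pfkp had Ctrl levels of 2.83, 2.77, 2.80 and 2.53 at P1 and 26.8, 27.0, 26.2 and 23.9 at P14. In PNS they were 3.26, 4.47, 3.18 and 4.34 at P1 and 25.8, 28.2, 25.03 and 31.9 at P14. The lowest P14 library lay far above the highest P1 library in both conditions. The log2 change was 3.25 ± 0.11 in Ctrl (9.51-fold) and 2.86 ± 0.11 in PNS (7.27-fold), with adjusted p of 2.27e-13 and 7.98e-13 (edgeR). Pfkm was 43.5, 44.5, 42.3 and 44.7 at P1 and 113, 108, 106 and 105 at P14 in Ctrl. It was 42.9, 40.1, 42.8 and 44.2 at P1 and 103, 109, 102 and 123 at P14 in PNS, a rise of 2.47-fold in Ctrl and 2.57-fold in PNS. Pfkl changed less. It read 12.2, 14.1, 12.4 and 14.4 at P1 and 22.1, 21.7, 19.0 and 19.4 at P14 in Ctrl. It read 12.6, 11.5, 13.9 and 11.8 at P1 and 18.9, 19.8, 17.98 and 21.6 at P14 in PNS, and its folds were 1.54 and 1.57.

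Pfkfb3 makes fructose-2,6-bisphosphate, the activator of phosphofructokinase, and it moved the other way. Ctrl levels were 12.4, 12.1, 12.3 and 14.5 at P1 and 3.59, 2.87, 3.34 and 3.35 at P14. PNS levels were 12.4, 11.0, 11.1 and 13.4 at P1 and 3.69, 3.59, 2.88 and 3.08 at P14. The ages did not overlap, and Pfkfb3 was 3.90-fold lower at P14 in Ctrl and 3.62-fold lower in PNS (adjusted p = 1.29e-11 and 2.71e-11, edgeR). Aldoa, the aldolase that splits fructose-1,6-bisphosphate, had Ctrl levels of 89.0, 112, 97.7 and 94.5 at P1 and 479, 479, 476 and 469 at P14. PNS levels were 112, 106, 123 and 93.5 at P1 and 469, 486, 499 and 600.1 at P14. At P14 it was the highest member in Ctrl, after a rise of 4.84-fold. The second Aldoa entry fell 1.60-fold in Ctrl (adjusted p = 0.00612, edgeR), from levels of 1.51 to 1.77 at P1 to 0.614 to 1.30 at P14. Tpi1, triosephosphate isomerase, had Ctrl levels of 62.1, 73.5, 64.5 and 68.4 at P1 and 210.0, 215, 208 and 214 at P14. PNS levels were 74.1, 68.1, 73.1 and 62.5 at P1 and 209.8, 211, 221 and 271 at P14. Its ages lay apart, and it rose 3.15-fold in Ctrl.

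All 6 payoff enzymes listed rose, and the neuronal enolase rose most among them. Gapdh, glyceraldehyde-3-phosphate dehydrogenase, had Ctrl levels of 162, 178, 166 and 199 at P1 and 366, 323, 332 and 339 at P14. In PNS they were 181, 171, 206 and 164 at P1 and 331, 355, 347 and 533 at P14, and PNS P14 replicate 4 was far above the other libraries. Gapdh rose 1.93-fold in Ctrl and 2.17-fold in PNS, or 1.91-fold without that library. Pgk1, phosphoglycerate kinase, was 52.4, 59.2, 52.0 and 52.4 at P1 and 103, 108, 99.96 and 102 at P14 in Ctrl. PNS gave 52.8, 50.2, 53.4 and 50.8 at P1 and 105, 103, 109.5 and 103 at P14, and the folds were 1.91 and 2.03. The ages lay apart in both conditions. Pgam1, phosphoglycerate mutase, gave 39.4, 44.0, 40.8 and 39.4 at P1 and 97.4, 96.8, 89.7 and 94.9 at P14 in Ctrl. PNS libraries had 43.1, 41.2, 42.0 and 39.6 at P1 and 94.0, 98.2, 101 and 112 at P14. It rose 2.32-fold in Ctrl and 2.44-fold in PNS. Eno1, the enolase of most cells, was 46.1, 51.6, 43.9 and 49.9 at P1 and 95.6, 92.8, 90.3 and 94.6 at P14 in Ctrl. In PNS it was 50.5, 46.7, 54.0 and 47.4 at P1 and 90.5, 94.4, 95.8 and 138 at P14, again with replicate 4 above the rest. It rose 1.95-fold in Ctrl and 2.10-fold in PNS, or 1.89-fold without that library. Eno2, the enolase of neurons, had Ctrl levels of 26.1, 30.7, 28.3 and 27.6 at P1 and 163, 160.1, 163 and 151 at P14. PNS levels were 32.5, 27.6, 31.2 and 26.2 at P1 and 157, 165, 160.5 and 186 at P14. It rose 5.65-fold and 5.69-fold (adjusted p = 9.87e-14 and 9.83e-14, edgeR), with a wide gap between ages. Pkm, pyruvate kinase, rose 1.47-fold in Ctrl and 1.64-fold in PNS, from a mean level of 126 ± 4.77 (SD, n = 4) to 185 ± 5.41 in Ctrl.

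At the fate of pyruvate, the subunit favouring lactate use rose more than the one favouring lactate production. Ldha had Ctrl levels of 88.5, 106, 98.8 and 96.3 at P1 and 166, 167, 166 and 170.1 at P14. PNS levels were 101, 80.8, 89.9 and 93.4 at P1 and 162, 163, 176 and 175 at P14. It rose 1.72-fold in Ctrl (adjusted p = 1.99e-08, edgeR) and 1.85-fold in PNS. Ldhb gave 82.2, 68.0, 84.3 and 69.3 at P1 and 164, 187, 187 and 193 at P14 in Ctrl. It gave 80.1, 87.5, 89.0 and 65.9 at P1 and 219.6, 185, 213 and 184 at P14 in PNS. Its folds were 2.41 and 2.49, and the ages of both subunits lay apart. Slc16a1, the lactate and ketone carrier MCT1 of vessels and glia, had Ctrl levels of 13.1, 15.1, 11.6 and 12.3 at P1 and 28.8, 26.6, 26.4 and 27.9 at P14. PNS levels were 14.9, 13.9, 16.2 and 13.7 at P1 and 26.2, 29.4, 24.1 and 32.0 at P14, and the folds were 2.10 and 1.90. Its ages did not overlap. Slc16a3, the lactate exporter MCT4 and a HIF target, was low. Ctrl libraries had 0.64, 0.891, 0.776 and 0.428 at P1 and 0.979, 0.684, 0.751 and 0.809 at P14. PNS libraries had 0.647, 0.564, 0.942 and 0.307 at P1 and 0.744, 0.8294, 0.91 and 0.737 at P14. The ages overlapped and the change did not pass (adjusted p = 0.432 and 0.192, edgeR), except in PNS without PNS P1 replicate 3 (0.025).

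The kinases that switch off pyruvate dehydrogenase differed in size of change. Pdk1, the HIF-induced isoform, had Ctrl levels of 3.39, 4.39, 4.07 and 3.91 at P1 and 4.13, 4.75, 4.26 and 4.40 at P14. PNS levels were 3.35, 3.82, 4.18 and 2.95 at P1 and 5.31, 5.35, 5.73 and 5.07 at P14. Ctrl ages overlapped and the log2 change of 0.16 ± 0.10 (SE) did not pass (adjusted p = 0.163, edgeR), and its sign turned when libraries were scaled by size alone. In PNS the ages lay apart and Pdk1 rose 1.503-fold (adjusted p = 3.96e-05, edgeR). Pdk2, the most widespread isoform, gave 7.60, 6.15, 7.05 and 7.27 at P1 and 22.3, 21.3, 21.5 and 22.6 at P14 in Ctrl. PNS libraries gave 6.91, 6.92, 7.78 and 6 at P1 and 21.9, 22.1, 21.2 and 26.0 at P14. It rose 3.13-fold in Ctrl and 3.30-fold in PNS, with the ages far apart. Pdk3 was 4.76, 5.44, 5.03 and 4.83 at P1 and 7.68, 7.63, 7.25 and 7.46 at P14 in Ctrl. It was 5.02, 5.21, 5.47 and 4.46 at P1 and 6.76, 7.59, 6.45 and 8.56 at P14 in PNS, a rise of 1.498-fold and 1.46-fold.

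The oxygen-sensing genes split between the α subunits. Hif1a, which encodes HIF-1α, had Ctrl levels of 20.8, 21.2, 19.9 and 23.2 at P1 and 20.2, 18.7, 17.5 and 19.1 at P14. PNS levels were 20.0, 19.7, 21.7 and 20.2 at P1 and 17.7, 17.9, 17.96 and 22.2 at P14, and the ages overlapped in both conditions. In Ctrl it was 1.13-fold lower (adjusted p = 0.0471, edgeR). That call was lost without any 1 of Ctrl P1 replicates 1, 2 and 4 or Ctrl P14 replicates 2, 3 and 4 (adjusted p 0.0596 to 0.137). In PNS it did not pass (0.201), but it passed as lower without PNS P14 replicate 4 (0.0089), with upper quartile scaling (0.00707) and with libraries scaled by size alone (1.39e-06). Epas1, which encodes HIF-2α and is rich in vessels, gave 8.65, 9.11, 7.52 and 9.36 at P1 and 23.2, 20.2, 21.5 and 21.7 at P14 in Ctrl. PNS libraries gave 8.97, 10.2, 11.9 and 8.40 at P1 and 19.4, 22.7, 19.6 and 26.5 at P14. The ages lay apart, and Epas1 rose 2.50-fold in Ctrl and 2.23-fold in PNS (adjusted p = 1.41e-08 and 7.15e-08, edgeR). Egln1, the main HIF prolyl hydroxylase, fell 1.22-fold in Ctrl (adjusted p = 0.0167, or 0.0661 without Ctrl P14 replicate 2, edgeR). It was 1.18-fold lower in PNS (adjusted p = 0.0402). That call was lost without any 1 of 6 libraries, namely PNS P1 replicates 2, 3 and 4 and PNS P14 replicates 1, 2 and 3 (0.0589 to 0.13). Egln3, the hydroxylase that HIF itself induces, did not pass in Ctrl or PNS (adjusted p = 0.0978 and 0.514), though it passed as lower in Ctrl without Ctrl P1 replicate 3 (0.0411) and with libraries scaled by size alone (0.00381). With DESeq2 size factors Hif1a in Ctrl (0.0615) and Egln1 in PNS (0.0781) did not pass.

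The remaining hypoxia-induced genes did not move one way. Vegfa, the vessel growth factor, had Ctrl levels of 7.13, 6.71, 7.07 and 6.13 at P1 and 13.4, 13.0, 16.1 and 12.8 at P14. PNS levels were 7.19, 7.89, 6.32 and 8.54 at P1 and 13.8, 12.3, 11.9 and 7.76 at P14. The ages lay apart in Ctrl, where Vegfa rose 2.04-fold, and overlapped in PNS through PNS P14 replicate 4 alone (7.76). In PNS Vegfa rose 1.53-fold (adjusted p = 0.000712, edgeR, or 0.067 when scaled by library size alone). Without that library the rise in PNS was 1.69-fold (adjusted p = 4.42e-06, edgeR). Bnip3, a mitophagy receptor, was 13.9, 16.4, 15.9 and 13.2 at P1 and 41.9, 45.3, 41.6 and 41.9 at P14 in Ctrl. In PNS it was 15.8, 13.4, 13.0 and 14.4 at P1 and 44.6, 43.3, 44.2 and 36.6 at P14. It rose 2.87-fold and 2.98-fold, with the ages apart. Its relative Bnip3l (NIX) read 31.3, 31.1, 30.2 and 28.3 at P1 and 31.2, 32.8, 33.1 and 31.9 at P14 in Ctrl. It read 30.9, 29.6, 27.5 and 30.8 at P1 and 32.8, 30.8, 31.7 and 25.4 at P14 in PNS. The ages overlapped and no change passed (adjusted p = 0.232 and 0.782, edgeR), except that Bnip3l was lower in PNS when libraries were scaled by size alone (adjusted p = 0.026). P4ha1 and P4ha2, the collagen prolyl hydroxylase subunits, rose 1.47-fold and 1.54-fold in Ctrl. In PNS the folds were 1.92 and 1.44, and the P4ha2 call in PNS was lost with library size alone (0.112).

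Among these stress-induced genes Ndrg1 and Ddit4 fell, and Ankrd37 was the least certain. Ndrg1, a stress-induced gene and a HIF target, had Ctrl levels of 17.1, 22.2, 17.4 and 22.5 at P1 and 2.91, 2.13, 2.54 and 3.22 at P14. PNS levels were 21.8, 19.1, 17.1 and 23.6 at P1 and 2.44, 2.52, 2.91 and 3.09 at P14. The lowest P1 library lay far above the highest P14 library, and Ndrg1 was 7.32-fold lower in Ctrl and 7.44-fold lower in PNS (adjusted p = 1.3e-11 and 1.28e-11, edgeR). Ddit4, the mTOR inhibitor REDD1, which also answers to glucocorticoids, fell 1.79-fold in Ctrl and 1.98-fold in PNS. Ankrd37, a small HIF target, rose 1.43-fold in Ctrl (adjusted p = 0.0387, edgeR) and 1.46-fold in PNS (0.0295). Its Ctrl call was lost without any 1 of Ctrl P1 replicates 1, 2 and 4 or Ctrl P14 replicates 1, 2 and 3 (0.0532 to 0.126). Its PNS call was lost without any 1 of PNS P1 replicates 1 and 3 or PNS P14 replicates 1 and 3 (0.0503 to 0.0952). Scaled by library size alone it passed in neither.

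Marker levels differed between the ages at the same time. In Ctrl the 10 astrocyte markers summed to 707 to 882 CPM on TMM-scaled library sizes at P1 and 3500.2 to 3661 at P14. The 8 oligodendrocyte markers in both tables summed to between 98.5 and 114 at P1 and between 587 and 1648 at P14. The 10 progenitor and cell cycle markers summed to between 405 and 547 at P1 and between 121 and 141 at P14. Neuron markers summed to 6807 to 7881 and 10813 to 11895. Their part in the changes above was not tested. Age is also the only label that separates the tables, so age and any difference in handling cannot be told apart.

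The order of levels within Ctrl was led by glycolytic enzymes at both ages. At P1 the highest were Gapdh (176 ± 16.9, SD, n = 4), Pkm (126 ± 4.77), Aldoa (98.4 ± 9.95) and Ldha (97.3 ± 7.16). Gapdh and Pkm did not overlap, Pkm and Aldoa did not overlap, and Aldoa and Ldha did. At P14 the order was Aldoa (476 ± 4.61), Gapdh (340.2 ± 18.6), Tpi1 (212 ± 3.44) and Pkm (185 ± 5.41), none of which overlapped. Pkm, Ldhb and Ldha followed with overlapping neighbours. The lowest with values at P14 were Hk2, Slc16a3, P4ha2 and the second Aldoa entry, all with means below 1 and overlapping neighbours. Car9 was at 0.025 ± 0.0178 in Ctrl P1. Of all neighbours in the order, 15 pairs lay apart and 21 overlapped at P1, and 19 lay apart and 16 overlapped at P14. The order depends on the annotated exon length used and on close copies of glycolytic genes, among which reads can be split. Hk1, Gpi1, Pfkm, Pfkp, Aldoa, Tpi1, Gapdh, Pkm, Pdk2, Slc2a3, Hif1a, Ankrd37 and Ndrg1 overlap another annotated gene, so their values are less certain.

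Ratios between isoforms ask the same question within each library, where scaling plays no part. Of 12 pairs, 10 changed with age (exact two-sided permutation test of age labels within condition, adjusted over the 12 pairs). The share of other gene pairs that change with age was not computed, so 10 of 12 has no background beside it. Of single genes in Ctrl, 35.4% rose and 37% fell. The smallest p that the 4900 relabellings allow is 0.00041, and it was reached by the 7 pairs whose ages did not overlap. Enolase turned over: Eno2 over Eno1, per kilobase, was 0.59 ± 0.0414 in Ctrl P1 (SD, n = 4) and 1.71 ± 0.0841 in Ctrl P14. In PNS it was 0.592 ± 0.0383 and 1.63 ± 0.184, so the neuronal form became the higher one in both conditions. Ldhb over Ldha moved less, from 0.786 ± 0.129 to 1.09 ± 0.07 in Ctrl and from 0.893 ± 0.173 to 1.19 ± 0.128 in PNS (exact permutation adjusted p = 0.00122). Single libraries of the 2 ages overlapped in this ratio. In normalized counts, Ldhb over Ldha went from 0.373 to 0.5185 in Ctrl and from 0.424 to 0.5635 in PNS. Ldha thus stayed the higher one in counts, and the order per kilobase at P14 rests on the annotated exon lengths.

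**Figure D2:**
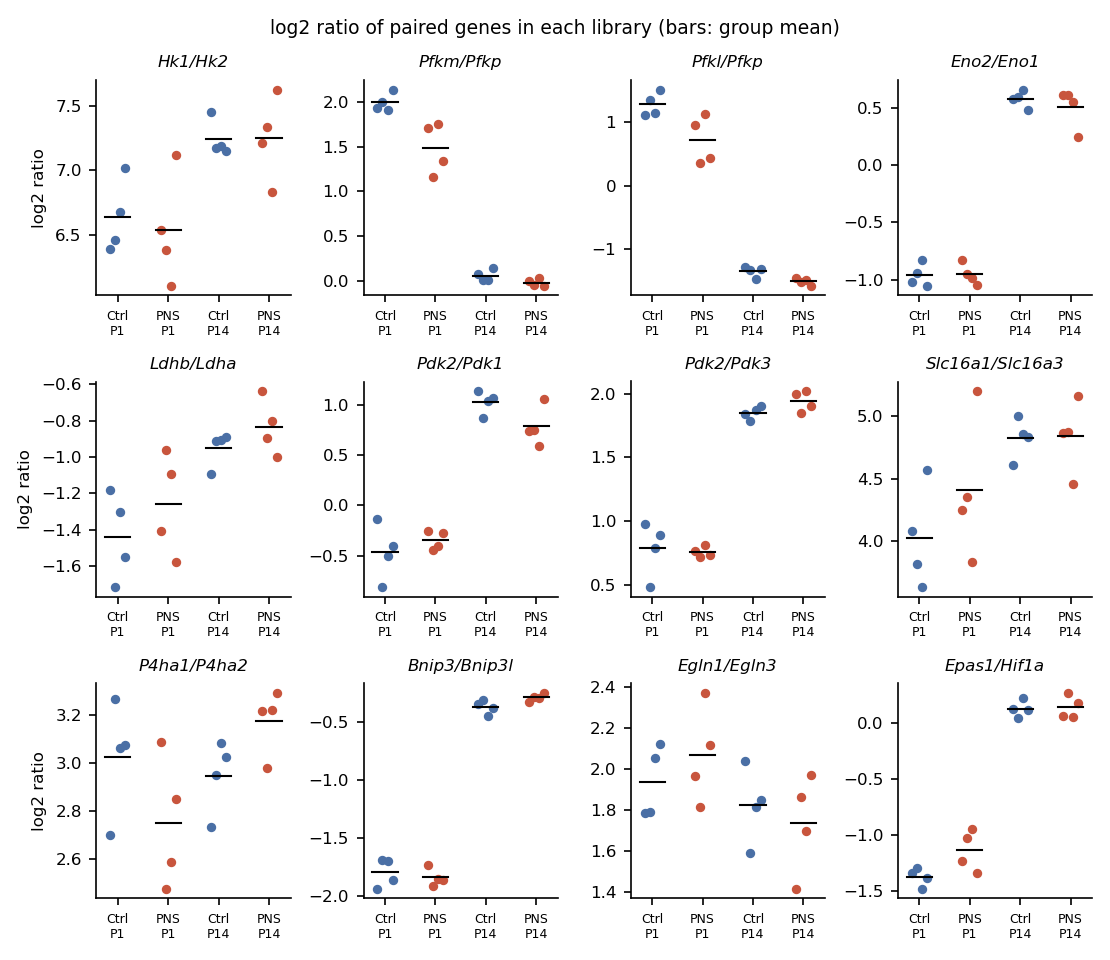
log2 ratio of normalized counts for each of the 12 gene pairs in all 16 libraries; points are libraries, bars group means, blue Ctrl and red PNS. Eno2/Eno1, Bnip3/Bnip3l, Epas1/Hif1a and both Pdk2 ratios lie higher at P14, and both Pfkp ratios lie lower.

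Phosphofructokinase turned towards its platelet subunit. Unless counts are named, ratios here are per kilobase and depend on the annotated exon lengths. Pfkm over Pfkp fell from 16.1 ± 1.14 to 4.17 ± 0.187 in Ctrl, and Pfkl over Pfkp fell from 4.90 ± 0.64 to 0.791 ± 0.0465. In PNS the same ratios went from 11.4 ± 2.22 to 3.95 ± 0.11 and from 3.38 ± 0.883 to 0.708 ± 0.025. Pdk2 over Pdk1 rose from 1.81 ± 0.347 to 5.02 ± 0.386 in Ctrl, and Pdk2 over Pdk3 from 1.41 ± 0.201 to 2.92 ± 0.103. The widespread kinase thus gained on both others. Epas1 over Hif1a rose from 0.407 ± 0.0216 to 1.15 ± 0.0597, and Bnip3 over Bnip3l from 0.491 ± 0.0417 to 1.32 ± 0.0524, both crossing 1 per kilobase. In normalized counts, Epas1 over Hif1a went from 0.386 to 1.09 in Ctrl. Bnip3 over Bnip3l went from 0.288 to 0.777 in counts and stayed below 1, so its crossing rests on the exon lengths. Hk1 over Hk2 (71.0 ± 14.6 to 107 ± 11.3) and Slc16a1 over Slc16a3 (20.3 ± 6.14 to 34.5 ± 3.87) also rose. Their adjusted p were 0.00272 and 0.0122 (exact permutation), and their ages overlapped. P4ha1 over P4ha2 (exact permutation p = 0.177) and Egln1 over Egln3 (p = 0.0543) did not pass.

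Other genes of the pathways were read from lists chosen by role. Of 29 further glycolysis and pyruvate genes tested, 19 rose and 8 fell in Ctrl, and 18 rose and 8 fell in PNS. The largest rises in Ctrl were those of Hkdc1, a hexokinase relative (level 0.0284 ± 0.00661 to 5.32 ± 0.626), Ldhd, the D-lactate dehydrogenase (0.041 ± 0.0138 to 1.26 ± 0.137), Pgm2l1, glucose-1,6-bisphosphate synthase (17.99 ± 2.21 to 105 ± 7.69), and Aldoc, the astrocyte aldolase (36.6 ± 5.94 to 156 ± 9.19). Falls included those of Pdp2 (2.03-fold), Pgm1 (1.75-fold) and Hk3 (1.68-fold). Of 42 further HIF pathway and hypoxia genes, 11 rose and 16 fell in Ctrl, and 10 rose and 19 fell in PNS. Both lists stand beside the same shares of all genes, 35.4% higher and 37% lower in Ctrl and 35% and 38.5% in PNS, and the falls in the HIF list in Ctrl were close to that background. Ak4, a mitochondrial adenylate kinase, rose 4.40-fold in Ctrl, the transcription factor Bhlhe41 4.10-fold, Higd1a 2.68-fold and the oxidase Ero1l 2.08-fold. Plin2, the lipid droplet coat protein, was 6.08-fold lower, Lox, lysyl oxidase, 5.23-fold, the Notch effector Rbpj 2.61-fold and Stc2 2.42-fold. The list medians were 0.52 and -0.13 on the log2 scale in Ctrl, beside 0.74 for the 36 entries above.

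The second comparison asked what prenatal stress changed at P1. None of the 36 entries that passed the filter on low values was called, and 0% of the 16711 genes tested were called (limma-trend on log2(value + 1), adjusted p below 0.05). Car9 did not pass the filter. Its P1 values were 2.89, 4.64, 0 and 4.23 in Ctrl and 9.84, 12.03, 8.85 and 1.58 in PNS. The log2 difference was positive in 18 entries and negative in 18, beside 7429 positive of all 16711 genes. The median difference was 0.002 against -0.0166 over all genes. With the score of the bulb markers in the fit, the difference was positive in 12 entries and negative in 24, with a median of -0.0211. At an unadjusted p below 0.05 there were 1 higher and 1 lower entry, where 4.58% and 2.09% of all genes stood (6.67% in all). EdgeR on recovered reads called 0 genes, and DESeq2 called 70 (0.369%), Pfkp among them. Without PNS P1 replicate 4, limma called 123 genes (0.736%) and 0 of the entries here.

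Pfkp had the largest difference at P1. The gene lies at chr13:6579768-6648777 on GRCm38, minus strand. Its normalized counts were 1924, 1889, 1899 and 1741 in Ctrl and 2228, 3051, 2120.4 and 2936 in PNS. Every PNS library lay above every Ctrl library, and PNS replicates 2 and 4 were the highest. Across all genes the groups did not overlap for 3.23%, and 1.69% were higher in PNS in this way. The log2 difference was 0.45 ± 0.12 (SE), with an unadjusted p of 0.00277 and an adjusted p of 0.669 (limma). DESeq2 gave 0.47 with an adjusted p of 0.0492. Leaving out each library in turn gave 0.37 to 0.54. The olfactory bulb score was highest in PNS P1 replicate 2, at 2.20, where Pfkp was 3051. It was lowest in PNS P1 replicate 4, at -1.57, where Pfkp was 2936. With that score in the fit the log2 difference was 0.53, and the part of bulb tissue was not tested. Pfkp overlaps Pitrm1 on the other strand, and the strand of counting is not given in the sources used here.

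P4ha1 was the 1 entry lower in PNS at P1 at an unadjusted p below 0.05. The gene lies at chr10:59323296-59373304, plus strand. Its normalized counts were 1408, 1609, 1418 and 1363 in Ctrl and 1461, 1132, 1091 and 1264 in PNS, and the groups overlapped through PNS replicate 1. The log2 difference was -0.24 ± 0.10 (SE, unadjusted p = 0.0368, adjusted p = 0.744, limma). With the score of the bulb markers in the fit it was -0.17 (unadjusted p = 0.21, limma). Ldha gave -0.11 ± 0.081 and Ldhb 0.072 ± 0.11, Eno1 0.042 ± 0.071 and Eno2 0.047 ± 0.08 (SE). Hif1a gave -0.069 ± 0.061, Epas1 0.17 ± 0.11 and Vegfa 0.13 ± 0.10. Slc16a3, the least precise, gave -0.22 ± 0.32.

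**Figure D3:**
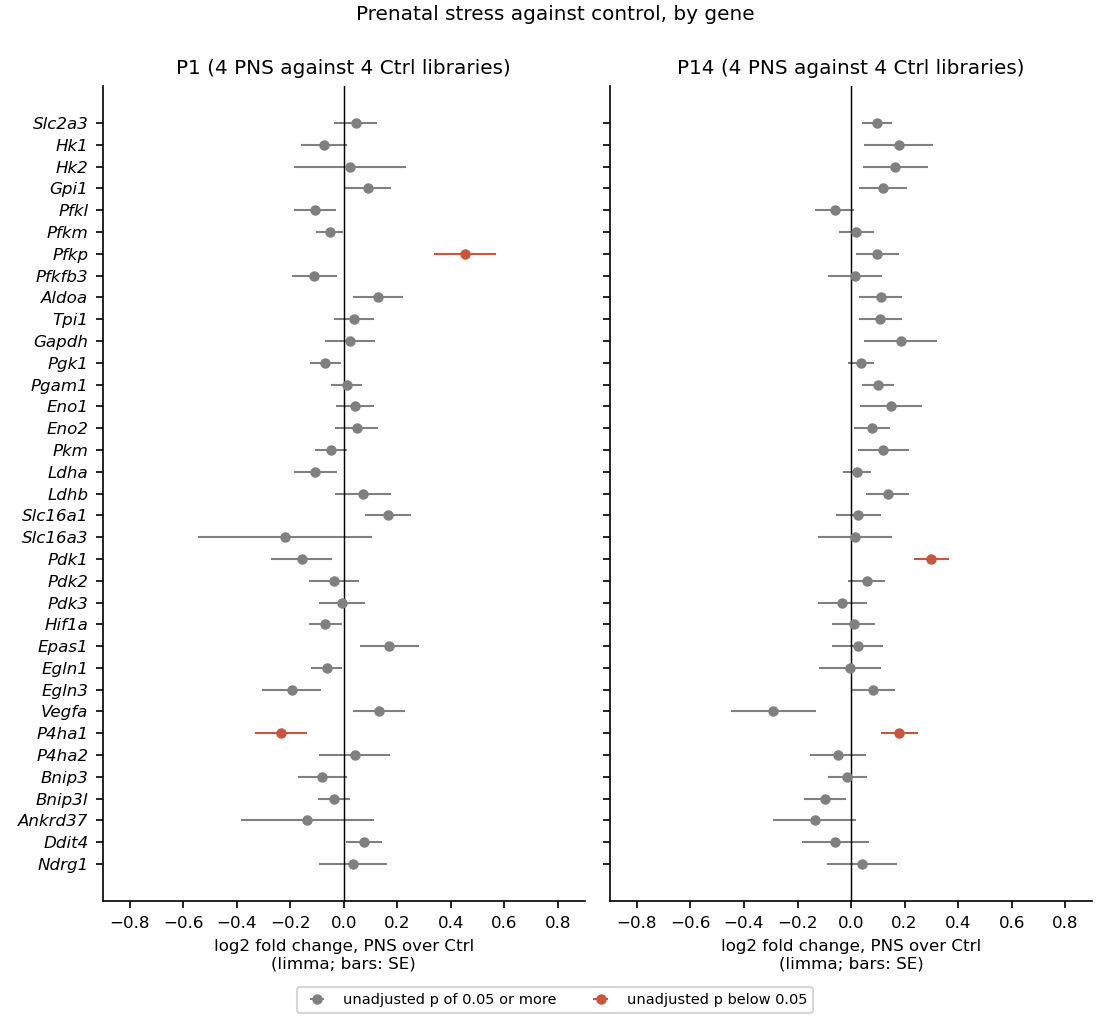
log2 fold change of PNS over Ctrl for 35 listed genes at P1 (left) and P14 (right), with the SE; red points have an unadjusted p below 0.05. Pfkp (0.45) and P4ha1 (-0.24) stand out at P1, and Pdk1 (0.30) and P4ha1 (0.18) at P14; no gene passed after adjustment.

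At P14 none of the 36 entries was called, and 0% of 15873 genes were (limma). EdgeR called 0 genes and DESeq2 5 (0.0263%), none of them listed here. At an unadjusted p below 0.05 there were 2 higher entries, Pdk1 and P4ha1, and 0 lower, where 1.61% and 1.4% of all genes stood (3.02% in all). The log2 difference was positive in 27 entries and negative in 9, beside 8031 positive of all 15873 genes. The median difference was 0.049 against 0.0015 over all genes. Without PNS P14 replicate 4 the difference was positive in 23 entries and negative in 13, with a median of 0.0266.

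Pdk1, the HIF-induced brake on pyruvate oxidation, had P14 normalized counts of 1055, 1215, 1105 and 1133 in Ctrl. The gene lies at chr2:71873224-71903858, plus strand. The PNS libraries had 1377, 1382, 1479 and 1307. All 4 PNS libraries lay above all 4 Ctrl libraries, and 1.05% of all genes did so. The reverse held for 1.07%, so that 2.12% of all genes had groups that did not overlap. The log2 difference was 0.30 ± 0.066 (SE, unadjusted p = 0.000974, adjusted p = 0.988, limma), and it ranged from 0.27 to 0.34 when each library was left out. P4ha1 had 1233, 1469, 1495 and 1337 in Ctrl and 1592, 1515, 1555 and 1592 in PNS. The groups did not overlap, though the highest Ctrl and lowest PNS libraries were close. The log2 difference was 0.18 ± 0.07 (SE, unadjusted p = 0.0274, adjusted p = 0.988, limma). Pdk2 and Pdk3 gave 0.059 ± 0.069 and -0.033 ± 0.091. Pfkp at P14 gave 0.10 ± 0.08, with counts of 11780.1, 11876, 11727 and 10592 in Ctrl and 11516, 12534, 11128 and 14177 in PNS that overlapped.

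**Figure D4:**
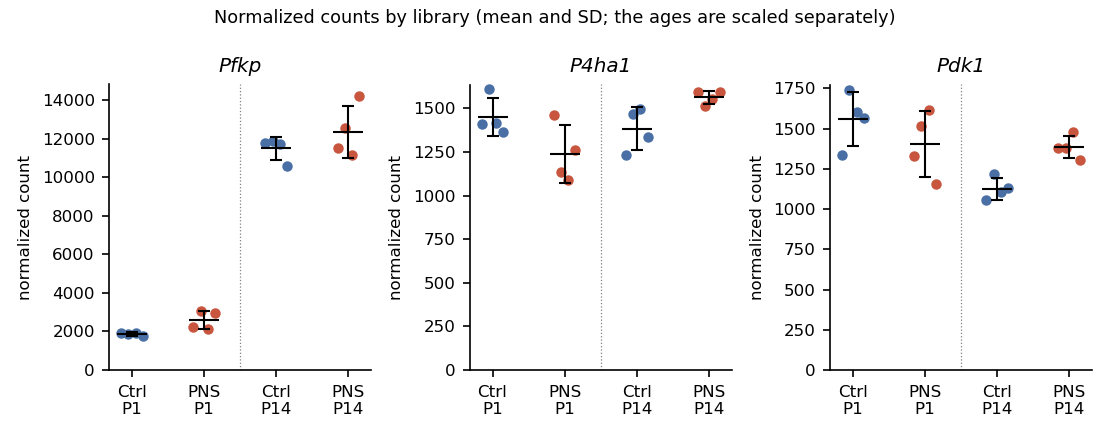
Normalized counts of Pfkp, P4ha1 and Pdk1 in all 16 libraries, with the mean and SD (n = 4); the tables of P1 and P14 were scaled separately and are not compared. PNS lies above Ctrl without overlap for Pfkp at P1 and for P4ha1 and Pdk1 at P14.

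The difference between the ages in the stress effect was tested as an interaction over all 16 libraries. None of the 36 entries passed, and 0% of 16418 genes did (limma; 5.93% had an unadjusted p below 0.05, and edgeR called 0). The effect at P14 minus that at P1 was 0.42 ± 0.12 for P4ha1 (SE, unadjusted p = 0.00372, adjusted p = 0.716, limma). It was 0.46 ± 0.14 for Pdk1 (unadjusted p = 0.00387, adjusted p = 0.716). For Pfkp it was -0.36 ± 0.15 (unadjusted p = 0.0283, adjusted p = 0.804). P4ha1 and Pdk1 were lower in PNS on average at P1 and higher at P14, and Pfkp was higher at both. At P1 Pdk1 gave -0.16 ± 0.11 (unadjusted p = 0.195, limma), with overlapping groups.

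Isoform ratios differed with prenatal stress for 2 of 12 pairs, and both have Pfkp as denominator. The share of other gene pairs that differ was not computed, so 2 of 12 has no background beside it. The adjustment covers these 12 pairs only. Over all genes, Pfkp alone was not called at P1 (adjusted p = 0.669, limma). Pfkm over Pfkp was lower in PNS by a log2 difference of -0.29 averaged over the ages (exact permutation p = 0.00163, adjusted p = 0.0147). Pfkl over Pfkp gave -0.36 (exact permutation p = 0.00245, adjusted p = 0.0147). At P1 alone the differences were -0.51 (exact p = 0.0286, the smallest that 4 against 4 allow) and -0.56 (0.0571). At P14 they were -0.077 (exact p = 0.114) and -0.16 (0.0571). No pair passed without Ctrl P1 replicate 2 or without Ctrl P1 replicate 4. Eno2 over Eno1 differed by -0.034 (exact permutation p = 0.602) and Ldhb over Ldha by 0.15 (exact permutation p = 0.166), and neither passed.

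Of the further HIF pathway and hypoxia genes at P1, 28 of 42 had a positive log2 difference, with a median of 0.09, and 0 were called. Over all genes 7429 of 16711 were positive, with a median of -0.0166. At an unadjusted p below 0.05, 7 of the 42 were higher and 0 lower, beside 4.58% and 2.09% of all genes. Endothelial markers were higher in PNS at P1 for all 10 genes (summed 15994 to 19628 in Ctrl, 19834 to 23573 in PNS) and meningeal fibroblast markers for all 9. Their part in these differences was not tested. Flt1 and Kdr stand in both the endothelial and the HIF list, and Kdr is 1 of the 7 higher genes. Of the further glycolysis genes 12 of 28 were positive, with a median of -0.006 and 0 called, and 1 was higher and 1 lower at an unadjusted p below 0.05. At P14, 25 of 42 and 16 of 29 were positive, beside 8031 of all 15873 genes, and 0 were called. All 10 endothelial markers were higher in PNS on average at P14 too, with overlapping sums (9899 to 11392 in Ctrl, 9546 to 13504.5 in PNS). Of the 9 meningeal fibroblast markers, 0 were higher in PNS at P14. The part of either list at P14 was not tested.

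**Figure D5:**
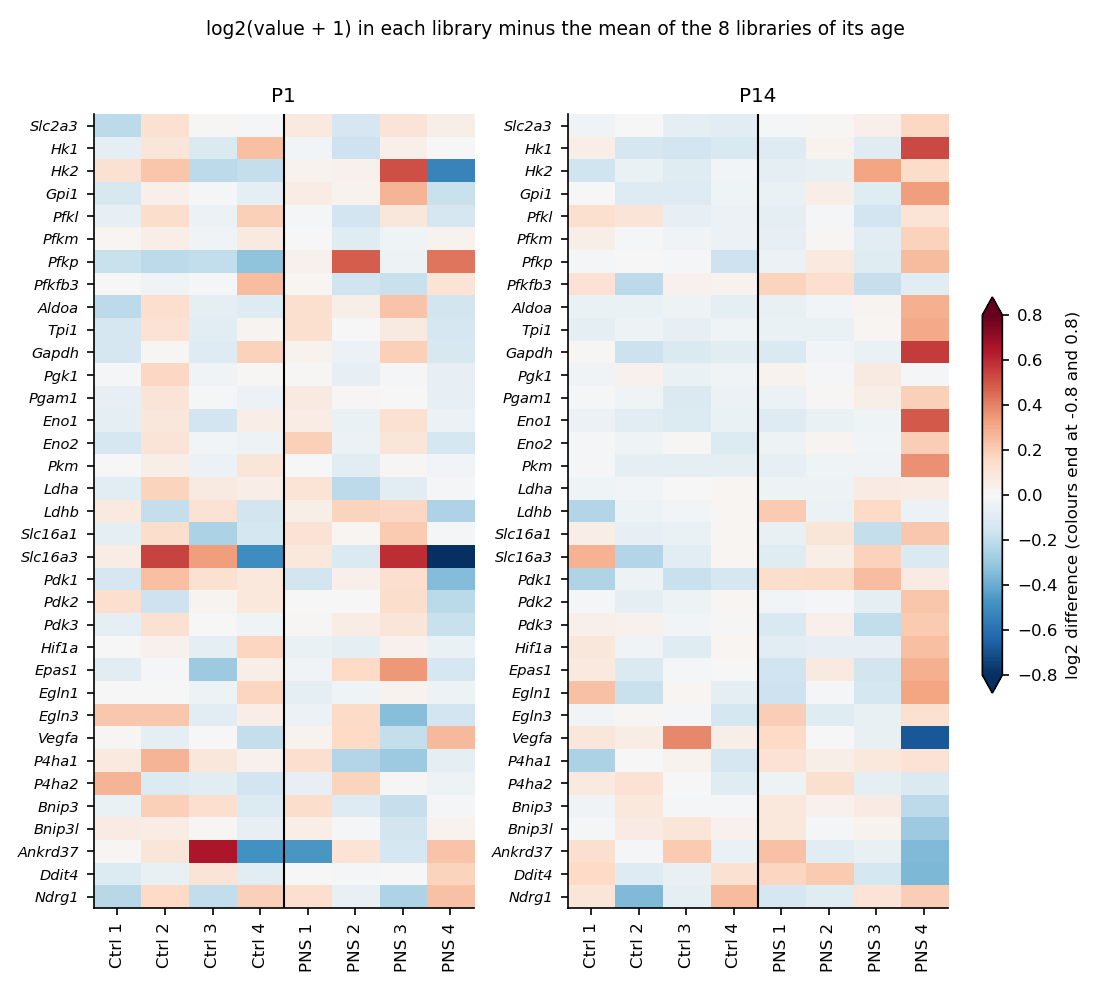
log2(value + 1) of 35 listed genes in each library minus the mean of the 8 libraries of that age; red is above and blue below the mean. PNS replicate 4 at P14 is red in most glycolytic rows and blue in Vegfa, Bnip3, Bnip3l, Ankrd37 and Ddit4.

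PNS P14 replicate 4 had the values that stood furthest from the rest. Its Gapdh count was 72975 against 43917 to 49713 in the other 7 libraries, Eno1 24504 against 16205 to 17091 and Pkm 41089 against 30116 to 31674. Hk1 was 30227 against 18863 to 21741. Vegfa was the reverse, at 1102 against 1688 to 2296, and Ddit4 was 875 against 1015 to 1298. Ldha, at 19160, and Pgk1, at 7671, lay within the range of the other libraries. The oligodendrocyte score of that library was the lowest at P14 (-1.39) and its red blood cell score the highest (1.61). Its neuron (0.182), endothelial (0.349), microglia (0.179) and meningeal fibroblast (0.334) scores were also the highest at P14. The part of these scores was not tested.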

How the data were processed

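Poly(A) RNA-seq libraries of mouse prefrontal cortex were processed with cutadapt, STAR 2.7.3a, HTSeq and DESeq2 on GRCm38, per the submitters' processing notes. The authors deposited 1 table per age of normalized signal, gene counts divided by size factors, and each age was normalized separately. The sources used here do not give the annotation release, strand or gene filter. Whole reads were recovered from the steps between values (tolerance 0.0051), and at least 99.97% of positive values came out whole.

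The members and lists were chosen with earlier results of these data known. PNS was tested against Ctrl, and the interaction with age, by limma 3.58.1 (trend) on log2(value + 1), keeping entries whose mean reached 10. P14 was tested against P1 by edgeR 4.0.16 on recovered reads with TMM scaling. Both use Benjamini-Hochberg adjustment over all genes. Isoform ratios were tested by exact two-sided permutation within strata. Levels use summed exon lengths of GENCODE M21. DESeq2 1.42.0, other scalings, filters, pseudocounts, covariates and left-out libraries were alternatives. Scripts ran in R 4.3.3 and were tested on simulated data. Per-library values were given for members with an unadjusted p below 0.05 for prenatal stress, both genes of pairs called by age, and members changed 2-fold with age. From the other lists, the 4 largest called changes in each direction were named, except 1 that is not reported here. Replicate libraries differed by more than sampling noise.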

Additional observations from a re-analysis of the deposited data

Results flagged for a closer look

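Within a group of 4 libraries, 14 of 146 sets of values had 1 library far from the other 3, where chance gives about 1 in 20. The gap to the nearest library, as a share of the group's range, is given for each. In PNS P14, replicate 4 was the highest for Hif1a (0.954, at 4341 normalized counts), Pkm (0.924), Eno1 (0.896) and Gapdh (0.886), and the lowest for the second Aldoa entry (0.846, at 18.4). In Ctrl P14, replicate 1 was the highest for Pkm (0.934, at 31674) and Hk1 (0.841, at 21741), replicate 2 for Bnip3 (0.901, at 3371) and replicate 3 for Vegfa (0.878, at 2296), and replicate 4 was the lowest for Pfkp (0.884, at 10592). In Ctrl P1, replicate 4 was the highest for Pfkfb3 (0.897, at 5617), replicate 1 for P4ha2 (0.86, at 216) and replicate 2 for Pgk1 (0.841, at 6763). In PNS P1, replicate 4 was the highest for Ddit4 (0.942, at 3673).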

How the results depend on the processing

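No called change with age reversed under the alternatives run, but with libraries scaled by size alone the sign turned for changes that had not passed: Pdk1 in Ctrl (-0.059), Hk2 (-0.14 in Ctrl, -0.093 in PNS), Bnip3l (-0.12 and -0.25, the latter then called) and Egln3 in PNS (-0.21). With DESeq2 on recovered reads, 1 entry was called for PNS against Ctrl at P1, Pfkp, where limma called 0. The isoform pairs called for PNS against Ctrl numbered 0 to 2 when each library was left out. Same-numbered libraries were not paired by the labels, and their deviations correlated from -0.18 to 0.28 at P1 and from -0.16 to 0.03 at P14; with the replicate block, 0 isoform pairs were called. Leaving out each library gave 28 to 32 calls with age in Ctrl and 29 to 32 in PNS, and 10 to 11 isoform pairs by age. The calls for prenatal stress at P1, at P14 and in the interaction stayed at 0 when each library was left out. With 4 libraries a group, the smallest exact p within an age is 0.0286. Genes with few reads (Hk2, Slc16a3, Car9) have wide errors.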

Other observations

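Other marker lists changed with age beside the genes above. In Ctrl all 11 immediate early genes, which neuronal activity induces, had a higher mean at P14, with sums of 79.0 to 100 CPM on TMM-scaled library sizes at P1 and 709 to 1208 at P14. None of 9 meningeal fibroblast markers was higher, with sums of 565 to 667 and 206 to 247. Of 10 endothelial markers 3 were higher, with sums of 316 to 386 and 301 to 347. These are values without a test. At P14 all 11 immediate early genes had a higher mean in PNS than in Ctrl, with sums of 23466 to 40294 normalized counts in Ctrl and 24683 to 51918 in PNS, and the groups overlapped.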
